A study of Mus with 5 samples.

Results

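The cytosolic ribosomal protein genes are the mouse genes Rpl and Rps followed by a number, together with the stalk protein genes Rplp0, Rplp1 and Rplp2. They were followed through 4 lists of ChIP-seq peaks, which mark where an antibody against RARα or against BATF recovered more DNA than a control antibody did. A gene was counted as a member when any list named it under such a symbol, with the Rps6k kinase genes and pseudogene names left out. This gave 76 members of 12699 genes named by any list. Of these, 70 were among the 79 textbook genes of the ribosome (47 of the large and 32 of the small subunit), and 6 were not: Rpl22l1, Rpl36al, Rpl7l1, Rps27l and Rps27rt, which are relatives of ribosomal protein genes, and Rps19bp1, whose product binds a ribosomal protein and is not one itself. Because members were found through peaks, shares were taken over all 88 protein-coding genes whose symbols match the pattern, 12 of which no list named, or over the 79 textbook genes. The textbook list also holds 3 genes whose names fall outside the pattern.

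Each ribosome is built from ribosomal RNA and one copy of nearly every ribosomal protein, so these genes are transcribed together and at a high level in growing cells. Their messenger RNAs begin with a pyrimidine tract through which mTOR, the kinase that couples growth to nutrients and cytokines, controls their translation. Activated T cells raise ribosome production before they divide. BATF is an AP-1 family factor that binds DNA with JUN and IRF proteins and shapes effector CD8 T cells, and RARα is a nuclear receptor that binds retinoic acid (RA).

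The cells were naive CD8 T cells from the spleen of wild-type mice, activated for 24 h with antibodies to CD3 and CD28, rested for 24 h in IL-2 at 100 U per ml, and given either no RA (control) or 50 nM RA for the last 1 h. The groups were RARα control, RARα with RA, BATF control and BATF with RA, and the same 1 file of normal rabbit IgG served every list. For some samples the labels name other interleukins than the protocol, and they do not say whether the IgG cells received RA. Each list was called on 2 pooled files, which are not stated to come from separate cultures, so that there is 1 list per condition, no spread between replicates and no test between conditions. After filtering there were 22655611 fragments in the RARα control and 22475060 in its RA pool, while the BATF control had 23110180 and its RA pool 16424269. BATF with RA thus had 71.1% of the depth of its control, and a site missing from the RA list cannot be told apart from a site missed at lower depth. In both BATF lists all 6 genes checked for CD8 T cell identity (Cd8a, Cd8b1, Cd3e, Cd3d, Cd3g and Cd2) had a promoter peak, while none of the markers of CD4 T cells (3 genes), B cells (4), myeloid cells (4) and NK cells (3) had one. A peak is not a measure of expression, so this describes binding only.

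At the authors' thresholds BATF was called at the promoters of most ribosomal protein genes, and RARα at none. Promoter is the class that the authors gave to a peak. In the BATF control list 73 of the 88 pattern genes had a promoter peak, or 83.0% with a 95% Clopper-Pearson interval of 73.4 to 90.1%, against 37.9% of all 21896 protein-coding genes. In the BATF RA list 60 of the 88 had one, or 68.2% (57.4 to 77.7%), against 27.7% of all protein-coding genes. These intervals cover counting error only. Under stricter limits the share stayed above that over all protein-coding genes but was not a majority under each of them. With a -log10 p of at least 10, 67 of the 88 genes had a BATF control promoter peak (76.1%, against 31.5% of all) and 42 had one with RA (47.7%, against 18% of all). With a fold enrichment of at least 5 the numbers were 53 (60.2%, against 25.9%) and 35 (39.8%, against 16.3%). Among peaks that named 1 gene only, they were 36 (40.9%, against 27.2%) and 32 (36.4%, against 19.4%), so the majority was lost in both lists. This last limit acts on annotation and not on the strength of binding. Of the 95 member promoter peaks in the control list, 44 named 1 gene, with a median fold enrichment of 5.80 against 5.72 for all 95. A small nucleolar RNA was also named by 26 of the 95, where 0.635% of all promoter peaks named one. In the RARα control list 0 of the 88 genes had a promoter peak, where 1.04% of protein-coding genes did, and in the RARα RA list again 0 of 88, where 0.219% did. A count of 0 in 88 genes allows a share of up to 4.11% by the same interval, so the absence of RARα promoter peaks at these genes could not be told from the share over all genes.

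Both subunits were covered. BATF control promoter peaks were called at 43 of the 47 textbook large-subunit genes (91.5%) and at 28 of the 32 small-subunit genes (87.5%). With RA the numbers were 36 (76.6%) and 22 (68.8%). All 60 members with a promoter peak in the RA list also had one in the control list, and 13 members had one in the control list alone. Of all 8291 protein-coding genes with a BATF control promoter peak, 71.8% had one in the RA list as well.

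**Figure D1:**
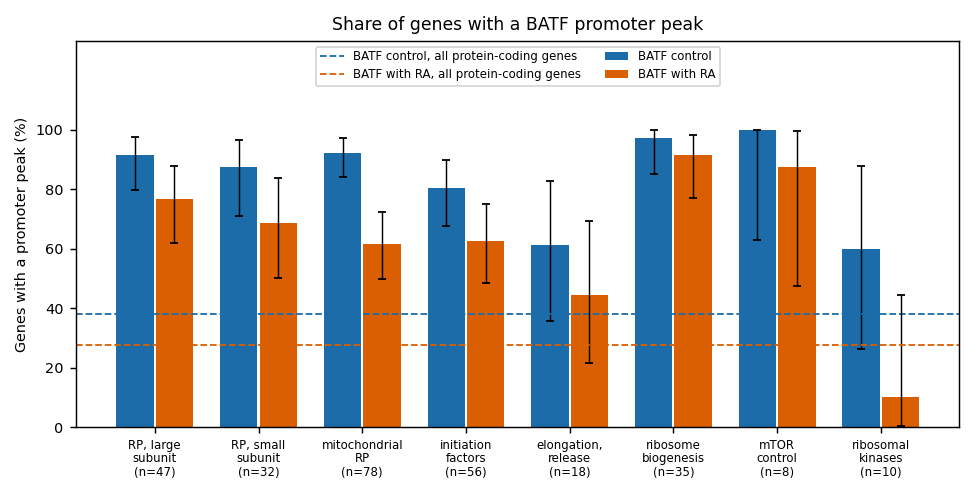
The bars give the percentage of genes in each list with at least 1 BATF promoter peak in the control and RA lists, error bars are 95% Clopper-Pearson intervals (counting error only), and dashed lines mark all protein-coding genes (37.9% and 27.7%). Both ribosomal protein groups stood above the dashed lines, as did the mitochondrial ribosomal protein (92.3% and 61.5%) and ribosome biogenesis genes (97.1% and 91.4%).

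Several other lists of the translation machinery gave values of the same order, so a high share of BATF promoter peaks was not limited to cytosolic ribosomal proteins. Mitochondrial ribosomal protein genes, which serve the separate ribosome of that organelle, had a BATF promoter peak at 72 of 78 genes in the control list and at 48 with RA (61.5%). The list of translation initiation factors took in every Eif symbol, and so also kinases and binding proteins that act on these factors. It had one at 45 of 56 genes (80.4%) and then 35 (62.5%). Eif4ebp1 and Eif4ebp2 were counted both here and under mTOR control. Genes for elongation and release factors, including enzymes that modify them, had one at 11 of 18 (61.1%) and then 8 (44.4%), with intervals of 35.7 to 82.7% and 21.5 to 69.2% that take in the shares over all protein-coding genes. Ribosome biogenesis and ribosomal RNA synthesis genes had the fullest cover among the lists of more than 10 genes, with 34 of 35 and then 32. Their leading members had a higher control fold enrichment than any cytosolic ribosomal protein gene, but so did genes of other lists. Eif4e3, of the initiation factor list, had 31.1 in the control list and 27.8 with RA. Mrps34, of the mitochondrial list, had 18.5 and 7.91. Rrp12, which is needed to export ribosomal subunits from the nucleus, had a fold enrichment of 32.8 in the control list and 19.1 with RA, and Npm1, the nucleolar protein nucleophosmin, had 20.04 and 15.5. All 8 genes of mTOR control had a control promoter peak and 7 had one with RA. The exception with RA was Rptor, the mTOR partner raptor, at a control fold enrichment of 3.40. The Rps6k kinase genes, which encode kinases and not parts of the ribosome and were left out of the members, stood at 6 of 10 in the control list and 1 with RA (Rps6kc1). Of the Myc group, Myc and Max had BATF promoter peaks in both lists and Mycn had none. RARα promoter peaks among these lists were 1 each in the control list at Mrps36 and Myc, and 1 in the RA list at Eif5a.

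The peaks named by the rule fell into promoter and intergenic classes only. The BATF control list held 137 peaks naming a member, which named 75 of the 88 genes (48.6% of protein-coding genes had a BATF control peak of any class). Of these peaks 95 were promoter peaks, or 69.3% (60.9 to 76.9%), where 58.7% of all its peaks were. The other 42 were intergenic, or 30.7%, where 18.1% of all its peaks were. Both classes thus stood above their share over all peaks. None was in an intron or exon, where 20.1% and 3.04% of all its peaks were. The BATF RA list held 83, naming 64 genes (38.2% of protein-coding genes). Of these peaks 64 were promoter peaks, or 77.1% (66.6 to 85.6%), where 64.6% of all its peaks were, and 19 were intergenic. The 2 classes sat at different places. Of the 95 control promoter peaks, 89 overlapped the body of the gene they name, and the summit, the point of highest pileup, lay a median of 232 bp from the nearer end of that gene (quartiles 139 and 731 bp). Of the 64 RA promoter peaks 56 overlapped the gene, with a median of 200 bp. The intergenic control peaks lay a median of 39855 bp from the gene they name, and 5 of 47 such links were within 10 kb. Their annotation named a median of 10 genes per peak and never a single one, so an intergenic peak cannot be tied to the ribosomal protein gene. By position alone, a BATF peak of any class lay within 10 kb of 77 of the 88 genes in the control list, against 48.5% of protein-coding genes, and of 67 in the RA list, against 38.6%.

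**Figure D2:**
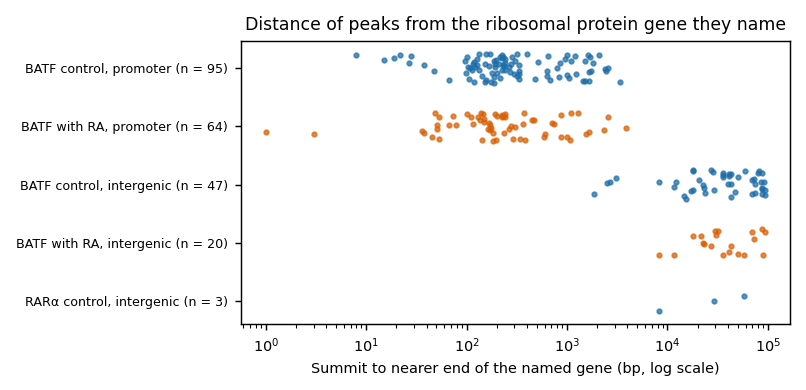
Each point is a peak that names a ribosomal protein gene, at the distance in bp (log scale) from its summit to the nearer end of that gene, by list and class, with points spread vertically for legibility. Promoter peaks lay at a median of 232 bp (control) and 200 bp (RA), and intergenic peaks mostly lay beyond 10 kb, as did 2 of the 3 RARα peaks.

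Rpl11 showed how far the intergenic links can reach. Its protein forms, with Rpl5 and 5S ribosomal RNA, a particle that binds the p53 regulator Mdm2. In the BATF control list it had 1 promoter peak (fold enrichment 7.90) and 7 intergenic peaks between 17734 and 93919 bp away. The one with the highest fold enrichment, 11.5, was 42112 bp from the gene, and its RA counterpart had 12.4.

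At the promoters themselves, BATF enrichment at ribosomal protein genes was ordinary for a BATF promoter peak. Fold enrichment divides the number of fragments at the summit (the pileup) by the local IgG level, after adding 1 to each. The 95 control promoter peaks of members had a median of 5.72 (range 2.71 to 12.7, quartiles 4.16 and 7.73), and all 9289 promoter peaks had 5.53 (quartiles 4.31 and 7.48). Of the 95 peaks, 50 lay above the median of all promoter peaks (52.6%). Their pileup was 39.5 fragments against 32.6 over all promoter peaks, and the median local IgG level was 1.75 times the IgG background in both. In the RA list the medians were 5.43 for the 64 member peaks and 5.11 for all 6393. Large-subunit peaks had a median fold enrichment of 5.89 in the control list and 5.58 with RA, and small-subunit peaks had 4.99 and 4.89. Member promoter peaks were also longer, with a median of 920 bp against 729 bp in the control list and 588 bp against 515 bp with RA. Small nucleolar RNAs, which guide the modification of ribosomal RNA, are often encoded within ribosomal protein genes, and 26 of the 95 peaks also named one, where 0.635% of all promoter peaks did. Those 26 peaks had a median fold enrichment of 5.57 and the other 69 had 5.72. In the RA list the medians were 4.63 for the 17 peaks that named one and 5.48 for the 47 that did not, with overlapping quartiles (3.81 to 6.0 and 4.32 to 6.80).

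**Figure D3:**
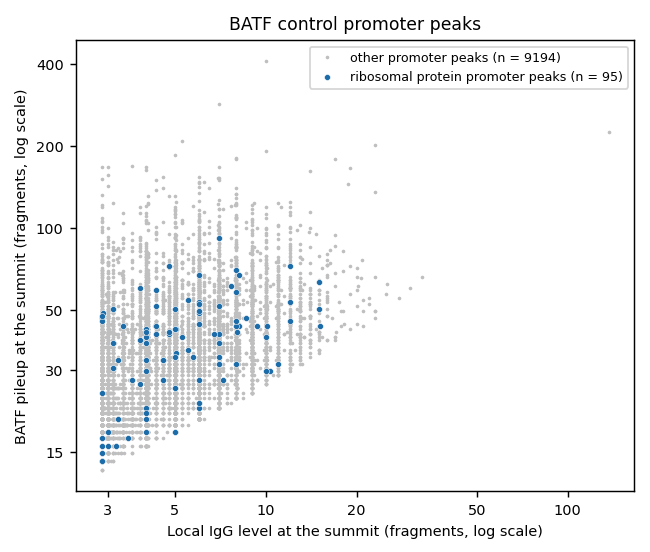
Each point is a BATF control promoter peak, with the local IgG level (fragments, log scale) on the x axis and the BATF pileup at the summit (fragments, log scale) on the y axis, in blue for the 95 ribosomal protein peaks and in grey for the others. The blue points lay within the grey cloud at IgG levels from 2.86 to 15.1 fragments.

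Of the 6 members of highest enrichment, 5 were large-subunit genes, as were 42 of the 73 members with a control promoter peak. A count among 6 genes taken by rank does not test for a difference between the subunits. Rpl24, whose product bridges the 2 subunits, had a peak at chr16:55966083-55966839 (mm10) with a pileup of 60.2 fragments over an IgG level of 3.84, a fold enrichment of 12.7. With RA the pileup was 28 over 2.83, a fold enrichment of 7.57. Rpl8, a protein next to the peptidyl transferase centre, reached 12.7 at chr15:76904036-76905115 from 48.4 fragments, and 8.26 with RA. Rplp2, one of the acidic stalk proteins that recruit elongation factors, reached 12.6 at chr7:141446867-141448383 from 72.1 fragments, and 5.08 with RA. Rps27l, a p53-induced relative of Rps27, had 12.5 at chr9:66945572-66946928 and 9.30 with RA. Rpl27, of the large subunit, had 12.5 at chr11:101441947-101443207 and 8.55 with RA. Rpl35, which lies near the exit tunnel of the nascent chain, had 12.2 at chr2:39004175-39005868 and 8.59 with RA. In each of these 6 the RA value was the lower one, but they were chosen for their control value, so the direction describes the choice as well as the sites. The lowest of them, Rpl35, had a higher fold enrichment than 94.6% of all BATF control promoter peaks. The greatest pileup of any member was at Rpl30, with 91.8 fragments and a fold enrichment of 11.6, and 8.46 with RA.

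The genes at the other end of the range came from both subunits. Rps3a1, of the small subunit, had the lowest strongest peak, at chr3:86142292-86142539, with 29.6 fragments over an IgG level of 10.3, a fold enrichment of 2.71. Rpl10a at chr17:28328674-28330137 had 43.5 fragments over 15.1 (2.76), and Rpl27a at chr7:109519008-109519574 had 29.6 over 10 (2.78). Rps2, which lies where messenger RNA enters the small subunit, had 45.4 over 12.0 (3.57) at chr17:24719679-24720522. Rpl34 at chr3:130729945-130730694 had 31.6 over 8.0 (3.62), and 20 over 2.83 with RA (5.48). The pileups of these 5 genes ran from 29.6 to 45.4 fragments, and 3 of them were below the median of 32.6 over all promoter peaks. Their IgG levels ran from 8.0 to 15.1 fragments and those of the leading 6 from 2.88 to 4.80, but both groups were chosen by fold enrichment, which has the IgG level in its denominator, so this separation describes the choice. Over all member promoter peaks, 13 of 95 (13.7%) had an IgG level over 3 times background, and over all promoter peaks 11.2% did.

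**Figure D4:**
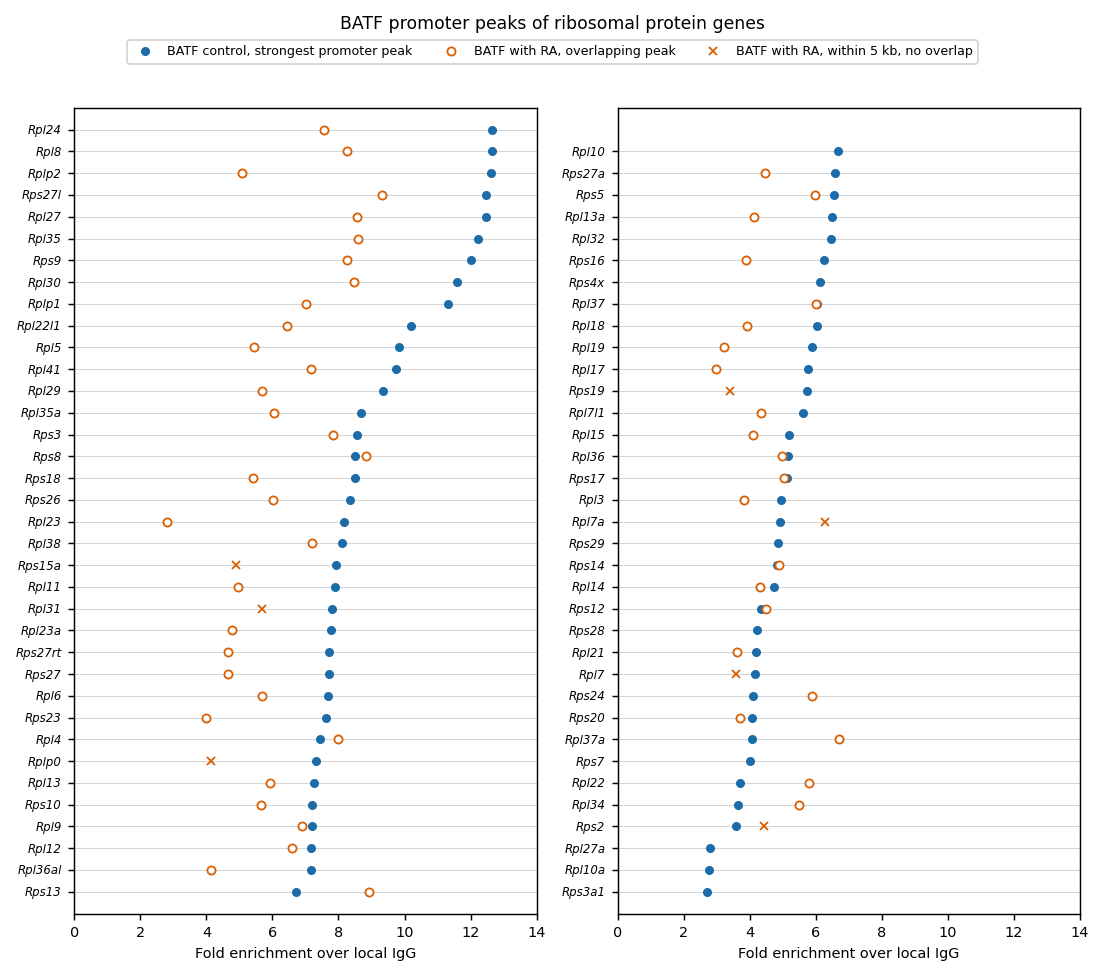
For each member drawn, ordered by the control value, the blue point is the fold enrichment over local IgG of its strongest promoter peak, the open orange circle that of the overlapping RA peak, and the cross that of an RA peak within 5 kb that does not overlap it. Genes with a blue point only had no RA peak within 5 kb, and most open circles lay to the left of the blue point, at the lower value, as at Rpl24 (12.7 and 7.57).

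The question of RA was whether the sites called in the control were called again after 1 h. Of the 95 control promoter peaks of members, 82 had a BATF RA peak within 5 kb, or 86.3% (77.7 to 92.5%), against 74.3% of all 9289 promoter peaks. With at least 1 bp of overlap required, the shares were 65.3% and 61.2%. Stronger peaks were called again more often in both. Among peaks with a -log10 p between 5 and 10 the shares were 17 of 23 (73.9%) for members and 52.2% for all promoter peaks. Between 10 and 20 they were 26 of 32 (81.3%) and 69.2%, between 20 and 40 they were 30 of 31 (96.8%) and 93.3%, and from 40 up they were 9 of 9 and 99.6%. Among the other gene lists, the share was 0 of 7 peaks for the Rps6k genes, 53 of 76 (69.7%) for mitochondrial ribosomal proteins, 9 of 12 (75%) for elongation and release factors, 42 of 53 (79.2%) for initiation factors, 9 of 10 (90.0%) for mTOR control, 38 of 39 (97.4%) for ribosome biogenesis and 4 of 4 for the Myc group. In the opposite direction, all 64 RA promoter peaks of members had a control peak within 5 kb, as did 98.0% of all RA promoter peaks.

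For 10 members the strongest control promoter peak had no RA peak within 5 kb. Rpl10, an X-linked protein needed for the last steps of large-subunit maturation, had a control fold enrichment of 6.65 from 24.7 fragments, and the nearest RA peak was 14915 bp away. Rpl32 had 6.45 with an RA peak at 15028 bp, and Rps4x, also X-linked, had 6.13 with the nearest RA peak at 450931 bp. Rps29 had 4.86 and one at 8544 bp. Rps28 had 4.20 from 15.8 fragments, close to the lowest pileup called in that list (12.8), and an RA peak at 41883 bp. Rps7 had 4.01 and one at 13727 bp. Rpl10a, Rpl27a and Rps3a1, the 3 members of lowest enrichment, had their nearest RA peaks at 104399, 431651 and 567971 bp. These 10 genes had a median control fold enrichment of 4.53 and a median IgG level of 2.60 times background, and the 63 others had 7.20 and 1.75 times. The ranges overlapped, from 2.71 to 6.65 for the 10 and from 3.21 to 12.7 for the 63. The part of depth and IgG level in these absences was not tested. A further 3 genes, Rps2, Rpl7a and the stalk protein gene Rplp0, had no RA promoter peak, and an RA peak of a neighbour lay 3520, 4711 and 4906 bp away.

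Where a control promoter peak had an RA peak within 5 kb, fold enrichment was lower with RA in most pairs, as it was over promoters in general. Of the 82 member pairs, 62 overlapped, and the others set a control peak beside a separate RA peak nearby, which at Rps2, Rpl7a and Rplp0 belonged to a neighbour. The 82 pairs drew on 66 different RA peaks, so that some RA peaks were counted more than once, and no interval is given. The median ratio of RA over control was 0.853 at the 82 paired member peaks (quartiles 0.639 and 1.04), and 0.828 over all 6902 promoter pairs. The RA value was the lower one in 58 of 82 pairs, or 70.7%, against 71.6% of all promoter pairs. Among the 62 overlapping pairs, which drew on 61 different RA peaks, it was lower in 48, or 77.4%, against 78.5% of all overlapping promoter pairs. As pileup divided by depth, the medians were 0.789 and 0.837, and with overlapping pairs only the fold ratios were 0.771 and 0.797, so whether members stood above or below all promoters depended on the measure. Large-subunit pairs had a median ratio of 0.803 (52 pairs) and small-subunit pairs 0.913 (30 pairs).

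**Figure D5:**
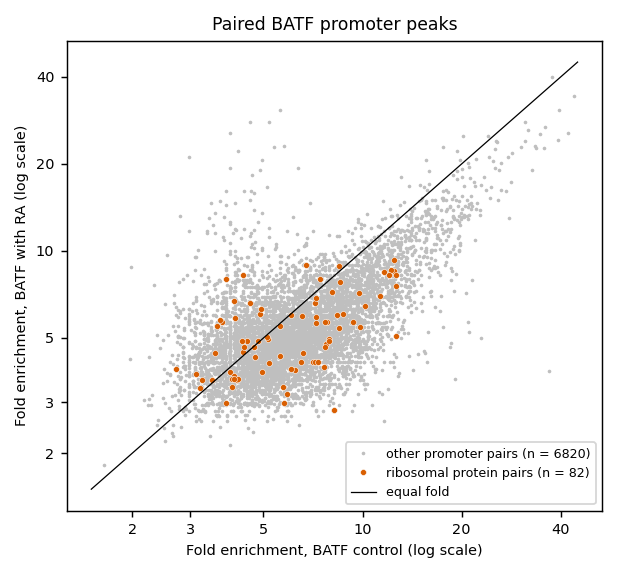
Each point is a BATF control promoter peak paired with its nearest RA peak within 5 kb, with fold enrichment in the control on the x axis and with RA on the y axis (both log scale), in orange for the 82 ribosomal protein pairs and in grey for the others. Most orange points lay below the line of equal fold, as 58 of 82 had the lower value with RA, and they lay within the grey cloud.

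Taking for each gene its strongest control promoter peak, the pairs at the ends of the range differed in IgG as well as in BATF. Rpl23, a large-subunit gene, had 38.5 fragments over 3.84 in the control (8.17) and 20 over 6.48 with RA (2.81), the smallest ratio at 0.344. Divided by depth, its BATF pileup had a ratio of 0.722 and its IgG level one of 2.35. Rplp2 followed at 0.403, with a BATF ratio of 0.501 and an IgG ratio of 1.25. Rpl17 came next at 0.517, from 5.76 to 2.98, with a BATF ratio of 0.703 and an IgG ratio of 1.40. The 3 largest ratios were at Rpl37a (1.64), Rpl22 (1.57) and Rpl34 (1.51). Rpl37a had 31.6 fragments over 7.00 in the control and 25 over 2.88 with RA, a BATF ratio of 1.10 and an IgG ratio of 0.571. Rpl22, which is needed for the development of alpha-beta T cells, had 39.5 over 10 and then 25 over 3.50, with a BATF ratio of 0.879 and an IgG ratio of 0.486. Rpl34 had the same BATF ratio and an IgG ratio of 0.492. All these pairs were chosen by a ratio of fold enrichments, which contains the IgG level, so their IgG ratios describe the choice as well. Since both BATF lists used the same IgG file, an IgG ratio away from 1 compares the surroundings of a pair of summits within a single IgG library. Over the 56 gene pairs that overlapped, 46 had the lower fold enrichment with RA, where 80.6% of such pairs over all protein-coding genes did, and 10 had the higher. The median IgG ratio was 1.00 at the 46 and 0.743 at the 10, and over all protein-coding genes it was 1.00 and 0.790. Fold enrichment has the IgG level in its denominator, so this separation describes the split by fold as well as the sites. The BATF pileup divided by depth was lower with RA in 48 of the 56, against 83.9% over all protein-coding genes.

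RARα peaks named 3 members, all in the control list and all intergenic, or 3 of the 88 genes where 7.18% of protein-coding genes were named by a control peak of any class. With RA 0 of the 88 were named, where 3.19% of protein-coding genes were. The peak naming Rpl11, at chr4:136082087-136082343, had 16 fragments and a fold enrichment of 2.44 (-log10 p 3.79), lay 28694 bp from the gene and overlapped a BATF control peak. The peak naming Rpl21, at chr5:146824498-146824801, had 11 fragments and 3.09 (-log10 p 4.31), lay 8089 bp from the gene and 4826 bp from a BATF peak, and was annotated to a long terminal repeat. The peak naming Rpl13, at chr8:123162715-123163539, had 26 fragments and 3.02 (-log10 p 7.05), lay 57471 bp from the gene and also fell in a long terminal repeat. It named 15 genes. Its nearest BATF peak was 48985 bp away. By position, 1 of the 88 genes (Rpl21) had a RARα control peak within 10 kb, where 3.99% of protein-coding genes did, and 0 had one with RA, where 1.46% did. Rpsa, a textbook gene outside the name pattern that encodes the laminin receptor protein of the small subunit, had a RARα control peak 918 bp from its body at chr9:120133287-120133538, with 11 fragments and a fold enrichment of 3.09.

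A few members had no BATF promoter peak. Rps25, which several viral RNAs need for initiation, was named by 4 intergenic control peaks 68780 to 84531 bp away and by 2 with RA, in a stretch that also named Cxcr5 and Bcl9l. By position, a BATF control peak that did not name Rps25 lay nearer, at 7257 bp. Rps19bp1 was named by 1 intergenic peak in each list, at 40932 bp in the control (fold enrichment 4.83) and 40863 bp with RA (3.85). Rps21, of the small subunit, was the only member named by BATF in the RA list alone, by an intergenic peak 8047 bp away with 11 fragments and a fold enrichment of 3.97. No list named 6 textbook genes. The nearest BATF control peak lay 1512 bp from Rps15, 3724 bp from Rpl28, 13161 bp from Rpl36a, 24775 bp from Rpl39, 28621 bp from Rps6 and 63037 bp from Rpl26. Rps6 is the substrate of the S6 kinases downstream of mTOR. Rps27rt was named only by peaks at Rps27 on chromosome 3, although the gene table places it on chromosome 9, so those peaks were counted under both names. The BATF control peak nearest to its place on chromosome 9 was 48164 bp away. Of the 73 members with a BATF control promoter peak, 20 had 2 or more, where 19.9% of protein-coding genes with one did, and 5 had 3, where 3.2% had 3 or more. Those 5 were Rps15a, Rpl21, Rpl7, Rps27 and, by the same peaks, Rps27rt.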

How the data were processed

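RARα and BATF ChIP-seq was analysed from 4 peak lists. The authors fixed the chromatin with formaldehyde, digested it enzymatically and sequenced it paired-end. Per the submitters' processing notes and the file headers, reads were aligned to mm10 with Bowtie2, HOMER was used, and peaks were called with MACS 2.2.7.1 on 2 pooled files per condition against 1 IgG file, at a p of 0.001 for RARα and 1e-05 for BATF. As deposited, pileup is a coverage signal that counts fragments over the summit, which the caller had scaled down slightly in the BATF control list. The deposited fold enrichment is a ratio over the local IgG level, and the deposited p-value is on the -log10 scale. The deposited q-value, also as -log10, was not used. Class and gene names are those the authors assigned.

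From these files, the IgG level was recovered as (pileup + 1) / fold − 1. Peaks naming a member were counted per gene, distances were taken from RefSeq gene positions on GRCm38.p6 (the assembly of mm10), which held 99.5% of all distinct names and all 76 members, and that table gives no strand. Older symbols in the peak lists were matched to current ones through its synonyms. A BATF control peak was called shared when an RA peak lay within 5 kb, as in the study's methods, and was paired with the nearest midpoint. Shares carry exact 95% Clopper-Pearson intervals, which cover counting error only. With 1 list per condition no test was run, and the main counts, shares and medians stand beside the same value over all promoter peaks or all protein-coding genes. Depth ranged from 16424269 to 23110180 fragments.

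Genes described singly were those with a RARα peak, the 6 highest and 6 lowest by control fold, those with no RA peak within 5 kb, those named by BATF with RA only or outside promoters only, the 3 largest and 3 smallest ratios, and the textbook genes in no list. Rpl30, Rpsa and the genes of other lists named singly were chosen after their values were seen, as were Rps2, Rpl7a and Rplp0 among the genes with no RA promoter peak. Members and lists were chosen with earlier results of these data known. Alternatives were stricter p or fold limits, peaks naming 1 gene, the textbook list, other distances, and the ratio without the added constant or as pileup divided by depth. Counting was tested on simulated data. The work ran in Python 3.11.15 (pandas 2.3.3, numpy 2.4.6), with intervals from scipy 1.17.1 and plots from matplotlib 3.10.9. Some genes that this rule takes in are counted in the totals but not reported here singly or drawn. Sequences and motifs were not analysed here.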

Additional observations from a re-analysis of the deposited data

How the results depend on the processing

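Of 37 alternative values, 27 stayed within the limits set for them (counts within 1.5 times, shares within their interval, ratios within 10%) and 10 moved. The 27 include RARα counts of 0 that a stricter limit could not change. When peaks were limited to those naming 1 gene, the members with a BATF promoter peak numbered 36 in the control list and 32 with RA, in place of 73 and 60 (27.2% and 19.4% of all protein-coding genes), and the promoter share of member peaks was 100% in both, since no intergenic peak named a single gene. A fold enrichment of at least 5 left 35 genes with RA and 53 in the control (16.3% and 25.9% of all). A -log10 p of at least 10 left 67 genes in the control and 42 with RA (31.5% and 18% of all), and the promoter share in the control was 77.4% in place of 69.3%. The promoter share over all peaks was not taken at this limit or for peaks naming 1 gene. These changes in promoter share therefore cannot be read as particular to members. The share of control promoter peaks with an RA peak, 86.3% within 5 kb, was 74.7% within 1 kb and 65.3% with 1 bp of overlap, where all promoter peaks gave 68.5% and 61.2%. The members named by a RARα control peak numbered 1 in place of 3 at a p of 1e-05. No share over all protein-coding genes was taken at that limit, so this count cannot be set against one. By a peak within 10 kb of the gene the number was 1, where 3.99% of protein-coding genes had one. RARα promoter peaks stayed at 0 in each alternative run. With a main count of 0, the limits on p, fold and names could only return 0. The textbook list and a window of 1 kb from either end of the gene could have returned more. In that window 0.717% of all protein-coding genes had a RARα control peak and 0.160% had one with RA. The median ratio of RA over control ranged from 0.771 to 0.867. A gene start could not be placed without strand, so a planned window of 1 kb around it was not run. A window of 1 kb from either end of the gene, chosen after seeing the data, gave 70 and 56 genes with a BATF peak, against 36.6% and 26.2% of all protein-coding genes.

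No paired analysis was possible because each condition had 1 peak list called on pooled files. For the same reason, values without a replicate were not computed. Depth was lowest in the BATF RA list, and reads were not used here to bring the BATF control to the same depth.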
